A study of Homo sapiens with 12 samples.

Results

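The genes described here are 41 genes of the actomyosin and cortical cytoskeleton, the contractile and scaffolding system under the cell membrane. They were taken by symbol from a table of 29607 genes, and all 41 were found in it and reached at least 1 TPM in at least 2 libraries, the filter for testing. TPM scales each library to the same total, so the sequencing depth behind a value is unknown. The cells were KMS11, an established human multiple myeloma line, in 12 libraries forming 6 groups of 2. The shControl cells carried a control hairpin and are labelled WT and untreated, and sh1 and sh2 cells carried 1 of 2 hairpins against STK17B. Inhibitor cells received an STK17B inhibitor whose name, dose and time the labels do not give. According to the design text they also carried the control hairpin. Vector cells carried a control vector, and overexpression cells a vector with STK17B cDNA. The design text speaks of vehicle as well, but no library is labelled so, and the inhibitor was compared with shControl. Effects of solvent, other targets and STK17B cannot be told apart there. The control columns of the table carry no group name: assigning them to shControl and Vector by library number is an inference, and calls in the knockdown, inhibitor and overexpression comparisons that the exchange ended or turned are named with the value it gave. The labels do not say that the libraries of a group came from separate cultures, so p-values measure the spread between these libraries, which may be technical. The labels also do not give the promoter of the vector or say whether a line is 1 clone.

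In a cell, monomeric actin assembles into filaments, non-muscle myosin II pulls on them, and the pull is set by phosphorylation of the myosin regulatory light chains. Kinases and phosphatases under the small GTPase RHOA control that phosphorylation, and STK17B is a serine/threonine kinase for which a regulatory light chain has served as a substrate in vitro. In cells of the blood lineage such as plasma cells the same system forms the cortex, which serves shape, migration and division. Transcription of many of its genes is driven by SRF, which binds a sequence called the CArG box and whose coactivators sense the pool of free actin monomer.

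The promoters are shown first because 6 members carry the SRF sequence close to a start of transcription. Promoter sequences of 38 of the 41 members were matched in RefSeq (GRCh38.p14, 250 bases before to 50 after a start), all but ACTB, MYL9 and ARPC1B. A gene can have several starts, and the 38 members had 66 promoters. A CArG box, searched by its name's consensus on both strands, lay in 6 of the 66 (9.09%), against 454 of all 35116 promoters (1.29%). By gene, 6 of the 38 members (15.8%) held a box in at least 1 promoter, against 438 of 27305 genes (1.6%). In the lines below, written 5′ to 3′ on the strand of the gene, capitals mark the CArG box. The windows are chr17:81512859-81512918 (minus strand) for ACTG1, chr19:16067340-16067399 (plus) for TPM4, chr19:1026494-1026553 (plus) for CNN2, chrX:154374694-154374753 (minus) for FLNA, chr14:68977703-68977762 (minus) for ACTN1 and chr2:11345476-11345535 (minus) for ROCK2.
ACTG1: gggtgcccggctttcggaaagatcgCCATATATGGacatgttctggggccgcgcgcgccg
TPM4: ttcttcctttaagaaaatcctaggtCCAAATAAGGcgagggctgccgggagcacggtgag
CNN2: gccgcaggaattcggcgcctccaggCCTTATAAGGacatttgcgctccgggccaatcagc
FLNA: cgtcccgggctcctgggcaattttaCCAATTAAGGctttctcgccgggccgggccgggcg
ACTN1: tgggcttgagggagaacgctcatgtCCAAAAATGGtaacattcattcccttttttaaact
ROCK2: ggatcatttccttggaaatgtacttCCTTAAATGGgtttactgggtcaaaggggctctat

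Counted from the start of the promoter shown, the first base of the box lay at -94 in ACTG1 and FLNA, -89 in CNN2, -73 in ROCK2, -171 in ACTN1 and -173 in TPM4. Which starts these cells use was not tested. The TEAD motif GGAATG, bound by the transcription factors that work with YAP, was searched on both strands with no overlap removed. It lay in 11 of the 66 promoters of members (16.7%), against 4928 of all 35116 promoters (14%). By gene it was held by 10 of the 38 members (26.3%) and 4567 of 27305 genes (16.7%). The members are MYH9, MYH10, MYL12A, CNN3, ROCK2, PPP1R12A, PFN1, ACTN1, VCL and LIMA1. For CNN3, the member with the largest difference between treatments below, the window chr1:94925881-94925936 (minus strand), in 1 of its 2 promoters, holds the motif read on the opposite strand, in capitals.
CNN3: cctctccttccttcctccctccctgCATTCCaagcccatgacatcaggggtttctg

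A match is a description of letters and not of bound factors. Of the 6 genes with a CArG box, ACTG1 rose in the knockdown, with inhibitor and with overexpression, and CNN2 rose in the knockdown and with overexpression. TPM4 rose in the knockdown and fell with inhibitor, and FLNA rose with inhibitor. ACTN1 and ROCK2 passed in none of these 3 comparisons. The calls lost under other settings are given with each gene below.

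The transcript of STK17B averaged 27.3 TPM in the 2 shControl libraries (SD 0.24, n = 2), 11.8 for sh1, 14.6 for sh2, 23.7 with inhibitor, 29.8 in Vector and 89.3 with overexpression. Plasma cell and myeloma markers were all detected, summing to 2203 to 3552 TPM per library, lowest with sh1. With the hairpins and with inhibitor every marker of this list was below shControl. SDC1 stood at 57.7 and 59.4 TPM in shControl, 12.7 and 12.5 with inhibitor, 51.5 and 51.2 in Vector and 23.3 and 24.8 with overexpression. With overexpression FGFR3 was above Vector, at 1417 and 1415 TPM against 1233 and 1232, and every other marker of this list was below it. Of 8 fibroblast and smooth muscle markers, cells rich in contractile genes, ACTA2 passed the filter, at 3.73 to 5.89 TPM, and the list summed to 4.45 to 7.50 TPM. Macrophage markers summed to 1.14 to 2.94 TPM, endothelial markers to 0.79 to 5.05 with CDH5 at 0, and erythroid and platelet markers to at most 1.09 with PF4 and PPBP at 0. The T and NK cell list rested on CD7, with CD3D at 0, and its sum ran from 142.5 to 143 TPM in shControl, 219.9 to 259 across the hairpins, 226 to 241 with inhibitor, 222 to 235 in Vector and 417 to 450.0 with overexpression. RN7SK, a non-polyadenylated RNA, also moved with the groups, from 13.3 TPM in shControl and 29.9 in Vector to 46.1 with inhibitor, 79.9 with sh2, 119 with sh1 and 127 with overexpression. The part of these shifts in the results below was not tested. In bulk RNA, fewer cells with a transcript and less of it per cell cannot be told apart.

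**Figure D1:**
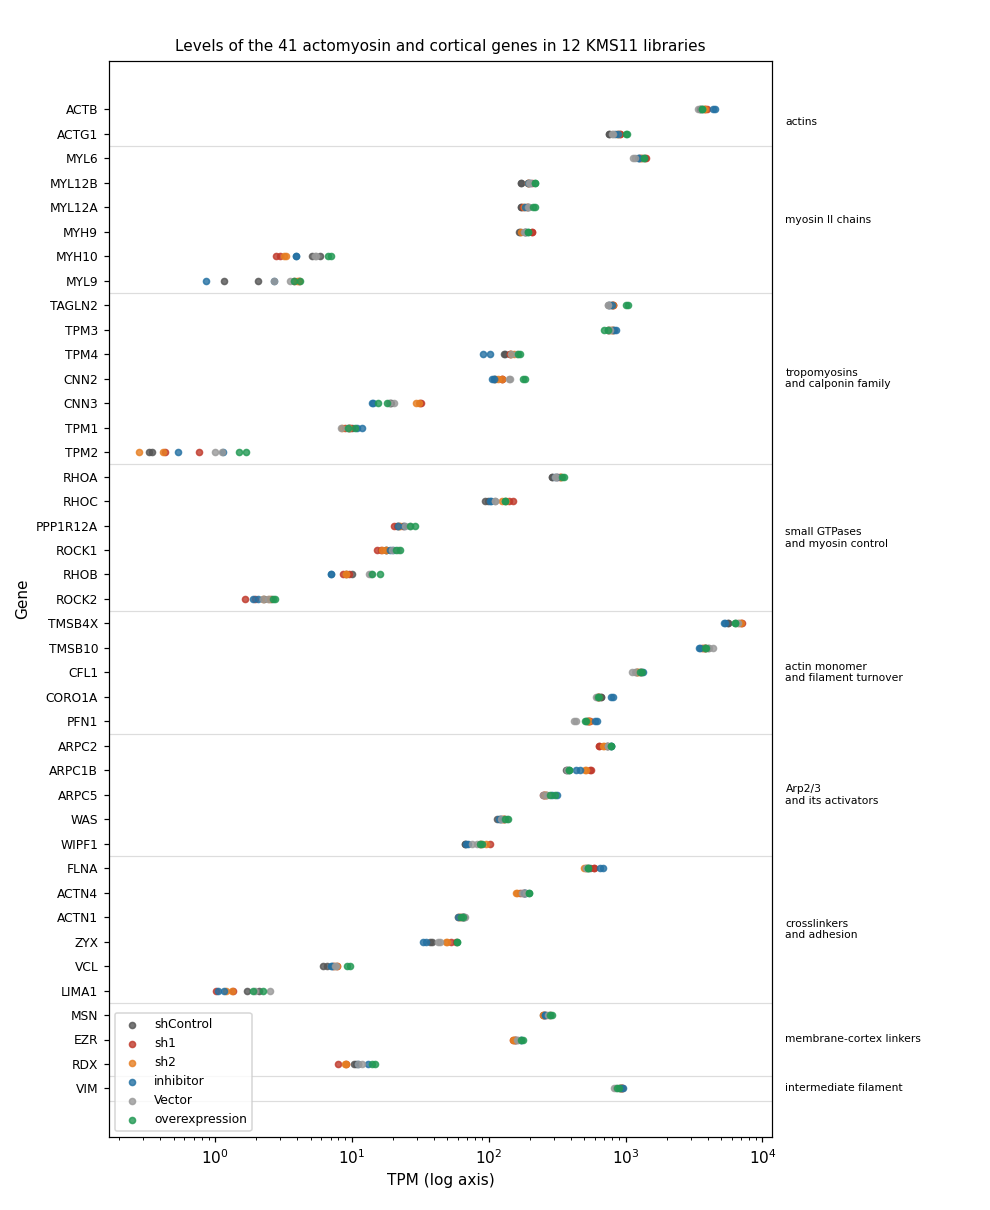
Level of each of the 41 genes in the 12 libraries, in TPM on a log axis, ordered by role, with 1 point per library coloured by group. The beta thymosins and ACTB are the most abundant in every library, whereas TPM2, MYL9, LIMA1 and ROCK2 stay under 5 TPM.

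The 41 genes together made up 2.39% to 2.66% of all TPM in a library, least in shControl and most with sh1. TPM is scaled by transcript length, so levels can be set side by side. The most abundant was TMSB4X, the main actin monomer-binding peptide, at 5281 to 7097 TPM, followed by TMSB10 and ACTB, whose ranges, 3464 to 4325 TPM and 3380.5 to 4535 TPM, overlapped. MYL6, CFL1, VIM, ACTG1, TAGLN2, TPM3 and ARPC2 came next, between 639 and 1423 TPM, and reached down into the range of CORO1A (607 to 816 TPM). At the bottom, TPM2 ran from 0.28 to 1.69 TPM, LIMA1 from 1.01 to 2.55 TPM, ROCK2 from 1.65 to 2.73 TPM and MYL9 from 0.859 to 4.19 TPM. Most myosin transcript came from the same few genes: MYH9 made up 96.5% to 98.7% of the MYH9 and MYH10 sum, and MYL9 at most 1.09% of the regulatory light chains.

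Each comparison was fitted with limma on log2(TPM + 1), and a gene was called at an adjusted p below 0.05 over all 12731 tested genes. In the knockdown, the mean of both hairpins against shControl, 16 of the 41 genes rose and 6 fell, where 26.2% and 20.2% of all tested genes did. With sh1 alone 17 rose and 6 fell, against 23.7% and 21.3% of all genes. With sh2 alone 14 rose and 4 fell, against 22.0% and 13.4%. The inhibitor raised 14 and lowered 8, against 28.0% and 11.8% of all genes. Overexpression against Vector gave 18 higher and 2 lower, against 26.6% and 10.3%. As shares of the 41, the higher calls were 39.0% in the knockdown, 34.1% with inhibitor and 43.9% with overexpression, and the lower calls 14.6%, 19.5% and 4.88%. The changes were small: the median of the absolute log2 change was 0.13 in the knockdown, 0.14 with inhibitor and 0.13 with overexpression, below the 0.18, 0.18 and 0.16 of all tested genes. The signed medians were 0.05, 0.08 and 0.13, beside 0.03, 0.08 and 0.08 for all genes.

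These genes are more abundant than most, and abundant genes had other background shares. This description was chosen after values were seen: 28 of the 41 averaged at least 50 TPM, as did 2664 genes in all. Among those 2664, 28.4% rose and 32.9% fell in the knockdown, where 12 (42.9%) and 3 (10.7%) of the 28 did. With inhibitor 46.7% rose and 14.0% fell, and of the 28 members 14 (50%) and 3 (10.7%). With overexpression it was 29.1% and 24.0%, and of the 28 members 14 (50%) and 1 (3.57%).

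The counts depended on the scale and on the assignment of the controls. Over all genes 56.4% of the knockdown calls, 70.3% of the inhibitor calls and 72.1% of the overexpression calls were higher. After rescaling by the median of ratios the splits were 50.1%, 52.1% and 46.0%, and after quantile normalization 47.7%, 51.9% and 46.3%. Rescaling by the median of ratios left 6 members higher with inhibitor and 8 higher with overexpression. With the control columns exchanged, 13 members rather than 6 were lower in the knockdown and 28 rather than 18 higher with overexpression, and 38.7% of all knockdown calls were higher.

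**Figure D2:**
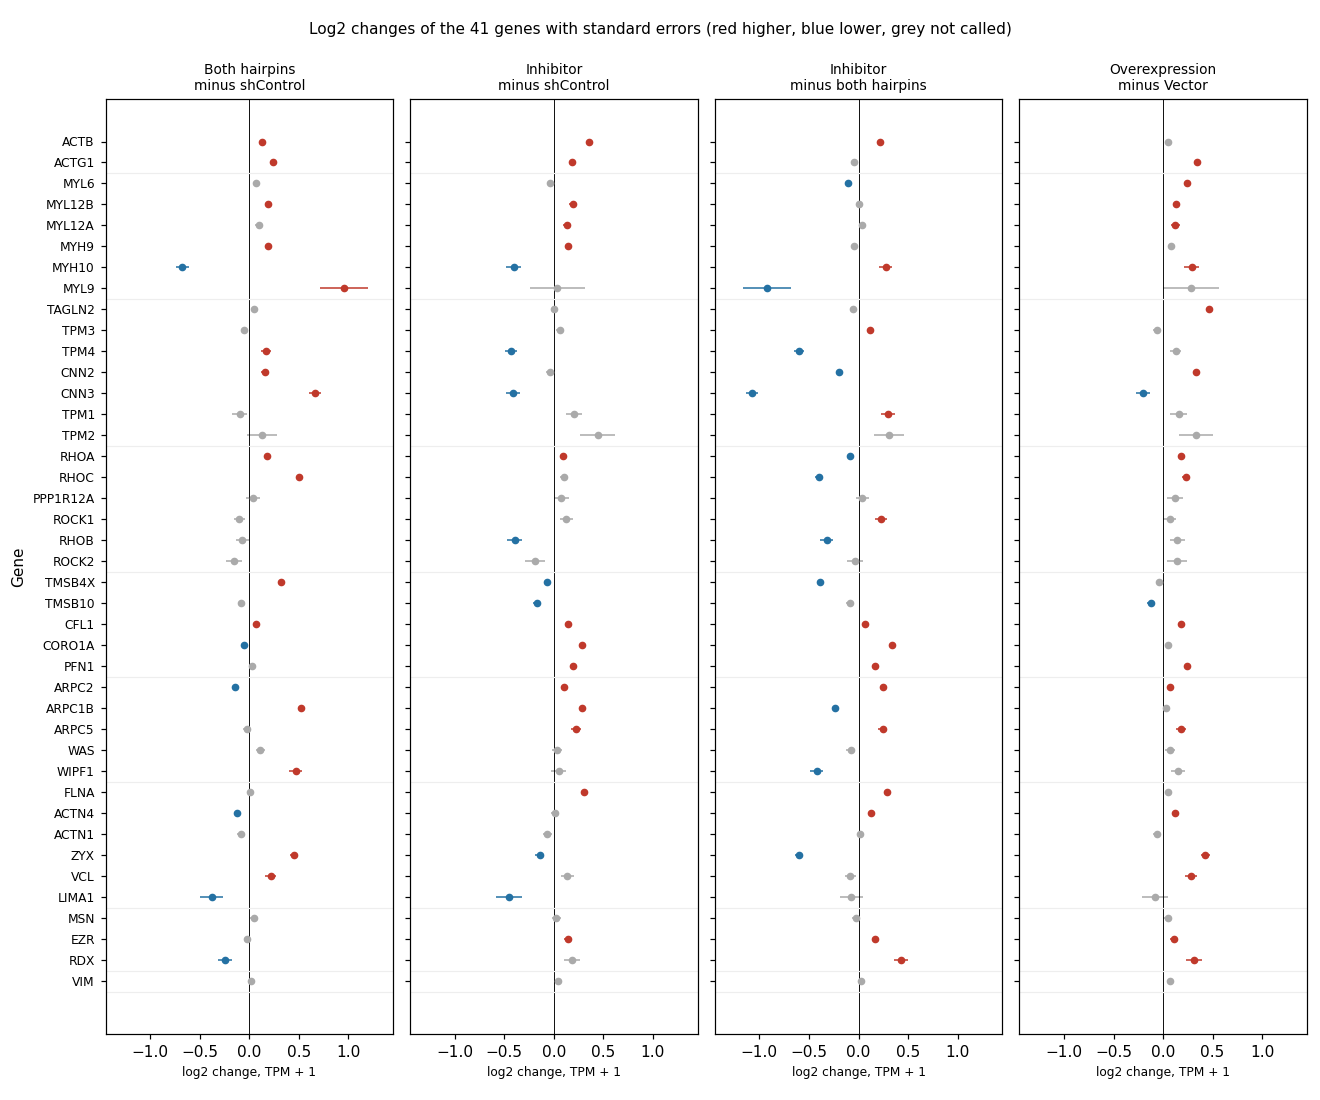
Log2 change on the log2(TPM + 1) scale with its standard error for each of the 41 genes, in the knockdown, with inhibitor, for inhibitor minus both hairpins, and with overexpression; red points were called higher, blue lower and grey not called. CNN3 lies at 0.66 in the knockdown and at -0.41 with inhibitor, the widest separation among the genes.

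The actins rose in the knockdown and with inhibitor, and ACTG1 also with overexpression. ACTB and ACTG1 encode the beta and gamma cytoplasmic actins, which are nearly identical as proteins. The likeness of their transcripts was not computed, so the division of reads between them is uncertain. ACTB stood at 3484 and 3502 TPM in shControl, 3929 and 3803 with sh1, 3822 and 3773 with sh2, 4387 and 4535 with inhibitor, 3619 and 3380.5 in Vector and 3639 and 3615 with overexpression. Both inhibitor libraries were above all others. The log2 change of ACTB was 0.35 (SE 0.0327, adjusted p = 5.5e-05) with inhibitor, 0.13 (SE 0.0283, adjusted p = 0.00391) in the knockdown and 0.05 (SE 0.0327, adjusted p = 0.238) with overexpression, which did not pass. ACTG1 stood at 763 and 752 TPM in shControl, 917 and 912 with sh1, 883 and 859 with sh2, 842 and 884 with inhibitor, 808 and 798 in Vector and 1013 and 1023 with overexpression. Its shControl libraries were the lowest of the 12 and its overexpression libraries the highest. The change was 0.34 (SE 0.0271, adjusted p = 2.4e-05) with overexpression, 0.24 (SE 0.0234, adjusted p = 4.3e-05) in the knockdown and 0.19 (SE 0.0271, adjusted p = 0.00065) with inhibitor, the last of which did not pass after rescaling by the median of ratios. As a share of the 2 transcripts, ACTB was highest with inhibitor (83.7% and 83.9%) and lowest with overexpression (77.9% and 78.2%).

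Among the 6 chains of myosin II, 3 rose and 1 fell in the knockdown, where 26.2% and 20.2% of all tested genes did. With inhibitor 3 rose and 1 fell, against 28.0% and 11.8%, and with overexpression 4 rose, against 26.6%. Counts among so few genes are descriptions only. The chain that fell in the knockdown and with inhibitor was MYH10, the heavy chain of non-muscle myosin IIB, while MYH9, the heavy chain of myosin IIA and the main one here, rose in both. MYH10 stood at 5.89 and 5.14 TPM in shControl, 3 and 2.81 with sh1, 3.19 and 3.29 with sh2, 3.89 and 3.95 with inhibitor, 5.52 and 5.4 in Vector and 7.11 and 6.68 with overexpression. Every hairpin and inhibitor library was below every control library, and the overexpression libraries were above them. The log2 change was -0.68 (SE 0.0662, adjusted p = 3.9e-05) in the knockdown, -0.40 (SE 0.0764, adjusted p = 0.00275) with inhibitor and 0.29 (SE 0.0764, adjusted p = 0.0156) with overexpression; at these levels the added 1 TPM makes changes look smaller. The overexpression call was lost after either rescaling and without Vector replicate 1, Vector replicate 2 or overexpression replicate 1. MYH10 was picked for full values after they were seen. MYH9 stood at 167 and 169.6 TPM in shControl, 209 and 207 with sh1, 172 and 184 with sh2, 185 and 187 with inhibitor, 185 and 181 in Vector and 195 and 192 with overexpression. The sh1 libraries were the highest of the 12 and the sh2 libraries lay near the controls, at 172 and 184 TPM. The change was 0.19 (SE 0.0282, adjusted p = 0.00047) in the knockdown and 0.14 (SE 0.0326, adjusted p = 0.00669) with inhibitor, and both calls were lost with the control columns exchanged, where the knockdown value was 0.07 and the inhibitor value 0.02. The inhibitor call was also lost after either rescaling.

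The light chains followed other courses. MYL12A and MYL12B, neighbouring genes on chromosome 18 with nearly identical products and therefore uncertain as separate values, are the regulatory chains of non-muscle myosin. MYL12A stood at 173 and 174 TPM in shControl, 191 and 179 with sh1, 191 and 181 with sh2, 195 and 186 with inhibitor, 198 and 195 in Vector and 219 and 209 with overexpression. MYL12B stood at 173 and 173 TPM in shControl, 207 and 193 with sh1, 194 and 193 with sh2, 194 and 201 with inhibitor, 198 and 200.3 in Vector and 219 and 219 with overexpression. In both genes shControl was lowest and overexpression highest. MYL12B rose by 0.18 (SE 0.0299, adjusted p = 0.00086) in the knockdown, 0.19 with inhibitor and 0.13 with overexpression on the log2 scale, and the first of these became -0.02 with the control columns exchanged. MYL12A was 0.10 in the knockdown, which did not pass (adjusted p = 0.0586), and rose by 0.13 and 0.12 with inhibitor and overexpression. Both MYL12A calls were lost after either rescaling. The MYL12A inhibitor call was also lost without either shControl library or inhibitor replicate 1 and became -0.04 with the control columns exchanged, and its overexpression call was lost without any 1 of the 4 libraries. The MYL12B inhibitor call was lost after quantile normalization and became -0.01 with the exchange, and its overexpression call was lost after the median of ratios and without Vector replicate 1 or either overexpression library. MYL9, the regulatory chain of smooth muscle, stood at 2.06 and 1.16 TPM in shControl, 3.81 and 4.09 with sh1, 3.95 and 4.12 with sh2, 0.859 and 2.73 with inhibitor, 2.7 and 3.54 in Vector and 3.78 and 4.19 with overexpression. The 4 hairpin libraries were close together and above shControl, and the inhibitor libraries differed from each other by more than 3 times. MYL9 rose in the knockdown by 0.96 (SE 0.242, adjusted p = 0.00977), a call lost without shControl replicate 2 or with the control columns exchanged (0.28), and was 0.03 with inhibitor, which did not pass. MYL6, the essential light chain, rose with overexpression by 0.24 (SE 0.0275, adjusted p = 0.00018) from 1164 and 1141 to 1362 and 1362 TPM, where the Vector libraries were the lowest of the 12.

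In the tropomyosin and calponin family, whose products lie along the actin filament, CNN3, CNN2 and TPM4 rose in the knockdown and none of the 7 fell. With inhibitor TPM4 and CNN3 fell and none rose. With overexpression TAGLN2 and CNN2 rose and CNN3 fell. Of all tested genes 26.2% rose and 20.2% fell in the knockdown, 28.0% and 11.8% with inhibitor, and 26.6% and 10.3% with overexpression. CNN3 (ENSG00000117519.15; GRCh38, chromosome 1, 94896949 to 94927278, minus strand) encodes calponin 3, the acidic calponin of non-muscle cells. CNN3 stood at 19.1 and 19.3 TPM in shControl, 32 and 31.3 with sh1, 31.1 and 29.7 with sh2, 14 and 14.4 with inhibitor, 20.5 and 18.6 in Vector and 18.1 and 15.7 with overexpression. The 4 hairpin libraries lay above every other library and the inhibitor libraries below every other library, with no overlap. The change was 0.66 (SE 0.0597, adjusted p = 2.3e-05) in the knockdown, -0.41 (SE 0.069, adjusted p = 0.00146) with inhibitor and -0.20 (SE 0.069, adjusted p = 0.0456) with overexpression, the last of which was lost without Vector replicate 1 or overexpression replicate 2. With the control columns exchanged the knockdown value was 0.64. The overexpression call was kept in 8 of 13 alternatives. CNN2, calponin 2, stood at 111 and 109.5 TPM in shControl, 125 and 124 with sh1, 117 and 125 with sh2, 106 and 109 with inhibitor, 142 and 144 in Vector and 177 and 184 with overexpression. Its overexpression libraries were highest and its Vector libraries next, above the hairpins. CNN2 rose by 0.34 (SE 0.0364, adjusted p = 0.00014) with overexpression and 0.15 (SE 0.0315, adjusted p = 0.00313) in the knockdown, and with the control columns exchanged the knockdown value turned to -0.22 and was called lower.

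TPM4, a tropomyosin of the cytoskeleton, stood at 129 and 132 TPM in shControl, 143 and 142 with sh1, 147 and 154 with sh2, 102 and 90.6 with inhibitor, 146 and 161 in Vector and 169 and 165 with overexpression. The inhibitor libraries were the lowest of the 12. TPM4 fell with inhibitor, at -0.44 (SE 0.0587, adjusted p = 0.00043), and was 0.17 (SE 0.0509, adjusted p = 0.0232) in the knockdown, a call that was lost without either shControl library or without sh2 replicate 2 and became -0.06 with the control columns exchanged. TAGLN2, transgelin 2, a calponin-like actin binder of blood cells, stood at 764 and 789 TPM in shControl, 805 and 814 with sh1, 807 and 791 with sh2, 758 and 795 with inhibitor, 742 and 750.0 in Vector and 1046 and 1016 with overexpression. The overexpression libraries stood above the other 10, which lay between 742 and 814. The change with overexpression was 0.47 (SE 0.0298, adjusted p = 6.7e-06). TPM3, the main tropomyosin at 697 to 846 TPM, TPM1 and TPM2 passed in none of the knockdown, inhibitor and overexpression comparisons. TPM2 reached 1 TPM in some Vector, inhibitor and overexpression libraries and in no other.

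**Figure D3:**
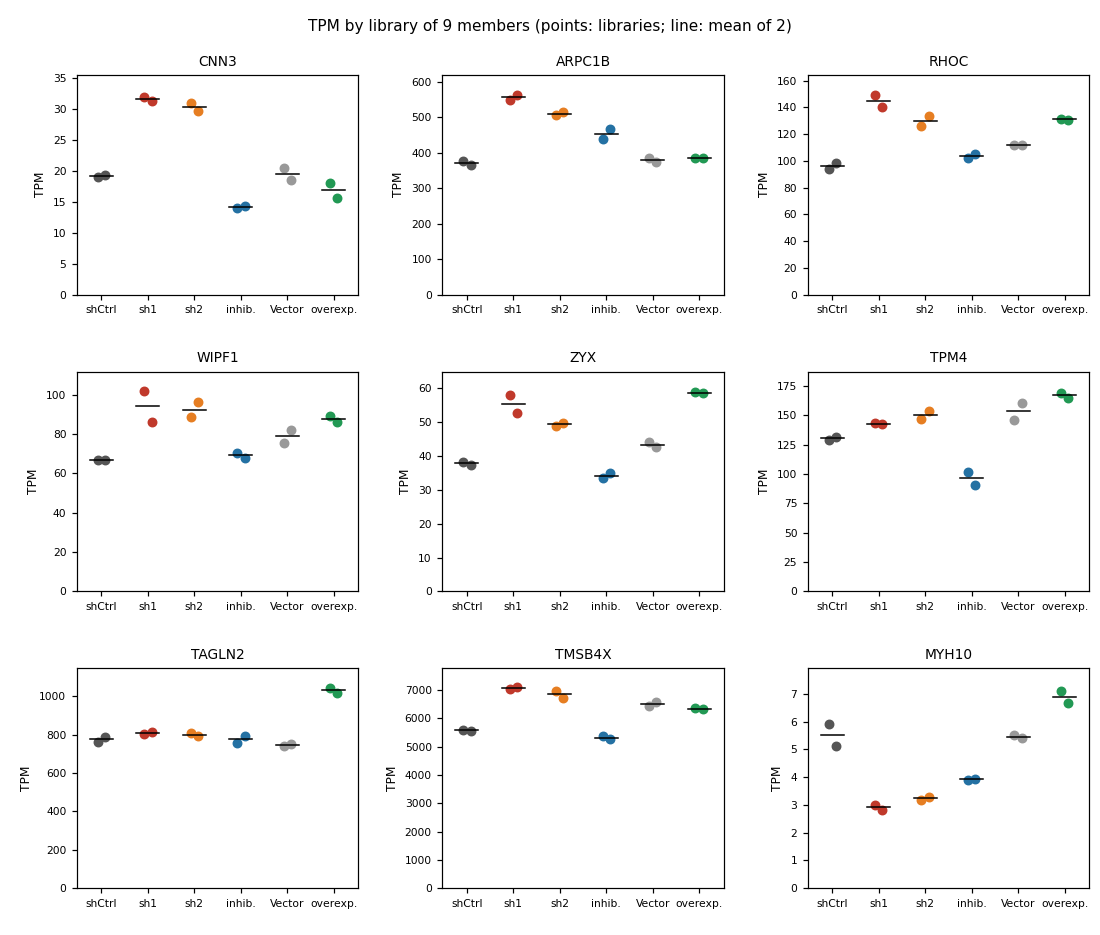
TPM of 9 members in each of the 12 libraries, with points for libraries, a line for the mean of the 2 and axes that start at 0. CNN3 is high in both hairpin groups and low with inhibitor. TMSB4X is highest in the hairpin groups and with inhibitor lies close to shControl, and ZYX is high in the hairpin and overexpression groups. TPM4 is low with inhibitor, TAGLN2 is high with overexpression, and MYH10 is low in the hairpin and inhibitor groups.

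Of the small GTPases and regulators of myosin, RHOA and RHOC rose in the knockdown, RHOA rose and RHOB fell with inhibitor, and RHOA and RHOC rose with overexpression. RHOC, a close relative of RHOA linked to cell motility, stood at 94.1 and 98.5 TPM in shControl, 149 and 140.3 with sh1, 126 and 133 with sh2, 102 and 105 with inhibitor, 112 and 112 in Vector and 132 and 131 with overexpression. The hairpin and overexpression libraries were all above the Vector, inhibitor and shControl libraries. RHOC rose by 0.50 (SE 0.0355, adjusted p = 5.9e-06) in the knockdown and 0.23 (SE 0.041, adjusted p = 0.00221) with overexpression, and was 0.10 (SE 0.041, adjusted p = 0.0717) with inhibitor, which did not pass. With the control columns exchanged the knockdown value was 0.29, still called. RHOA, the upstream switch of ROCK, ran from 289 to 358 TPM, with shControl lowest, and rose by 0.18 in the knockdown, 0.09 with inhibitor and 0.18 with overexpression. Its inhibitor call was lost after either rescaling, without any 1 of the 4 libraries and with the control columns exchanged (-0.0035), and its overexpression call after rescaling by the median of ratios. RHOB, a short-lived and inducible member, fell with inhibitor from 9.15 and 10 to 7.04 and 7.09 TPM (-0.39 (SE 0.076, adjusted p = 0.00305)). The inhibitor libraries were below all 10 others. ROCK1, ROCK2, the kinases activated by RHOA, and PPP1R12A, the targeting subunit of myosin phosphatase, passed in none of the knockdown, inhibitor and overexpression comparisons, with changes between -0.19 and 0.14.

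Among the 5 genes of monomer binding and filament turnover, TMSB4X and CFL1 rose and CORO1A fell in the knockdown. With inhibitor CFL1, PFN1 and CORO1A rose and both beta thymosins fell, TMSB4X turning and TMSB10 losing its call under quantile normalization. With overexpression CFL1 and PFN1 rose and TMSB10 fell. TMSB4X, shown in full after its values were seen, stood at 5583 and 5559.8 TPM in shControl, 7027 and 7097 with sh1, 6979 and 6708 with sh2, 5359.8 and 5281 with inhibitor, 6425 and 6585 in Vector and 6352 and 6325 with overexpression. The hairpin libraries were highest, the Vector and overexpression libraries next, and the inhibitor libraries lowest. TMSB4X rose by 0.32 (SE 0.0205, adjusted p = 3.4e-06) in the knockdown, which was 0.10 and still called with the control columns exchanged. The inhibitor value was -0.07 (SE 0.0236, adjusted p = 0.049) and turned to 0.07 after quantile normalization, and the call was lost without any 1 of the 4 libraries compared and kept in 4 of 13 alternatives. Processed pseudogenes of TMSB4X can share its reads, so its level is uncertain. TMSB10, the other beta thymosin, was -0.17 (SE 0.0389, adjusted p = 0.00745) with inhibitor and -0.12 (SE 0.0389, adjusted p = 0.0326) with overexpression. The first call was lost without shControl replicate 2. The second was lost under quantile normalization, without Vector replicate 1 or either overexpression library, and with the control columns exchanged (-0.03). CFL1, cofilin 1, which severs filaments, ran from 1118 to 1340.0 TPM and rose by 0.07, 0.14 and 0.18 in the knockdown, with inhibitor and with overexpression, and each call was lost after rescaling by the median of ratios. The knockdown call of CFL1 was also lost without either shControl library, sh1 replicate 1 or sh2 replicate 1. PFN1, profilin 1, which loads monomers onto growing ends, rose by 0.19 with inhibitor and 0.24 with overexpression. Both calls were lost under the median of ratios, and the overexpression value became -0.06 with the control columns exchanged, the Vector libraries being the lowest at 438 and 421 TPM. CORO1A, coronin 1A of leukocytes, stood at 783 and 816 TPM with inhibitor and 607 to 661 in the other 10 libraries, a rise of 0.28 (SE 0.0242, adjusted p = 3.7e-05). Its knockdown value was -0.06 (SE 0.0209, adjusted p = 0.0473), a call kept in 4 of 15 alternatives, lost without any 1 of the 6 libraries and after quantile normalization, and 0.05 with the control columns exchanged.

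Within the Arp2/3 complex, which starts branched filaments, the subunit genes among the members did not move together in the knockdown. ARPC1B rose and ARPC2 fell in the knockdown, while ARPC1B, ARPC2 and ARPC5 rose with inhibitor. Of the subunit genes outside the members, ARPC1A (0.79), ARPC4 (0.21), ARPC3 (0.18) and ACTR3 (0.15) rose in the knockdown. ARPC5L fell there (-0.19), and ACTR2 did not pass (0.03). ARPC1B, the subunit form typical of blood cells, stood at 376 and 365 TPM in shControl, 547 and 563 with sh1, 505 and 514 with sh2, 438 and 465 with inhibitor, 383 and 373 in Vector and 386 and 386 with overexpression. The hairpin libraries were highest, the inhibitor libraries next, and the other 6 lay below both without overlap. ARPC1B rose by 0.52 (SE 0.0287, adjusted p = 1.4e-06) in the knockdown and 0.29 (SE 0.0332, adjusted p = 0.00019) with inhibitor, and was 0.03 with overexpression, which did not pass. ARPC2, a core subunit, stood at 737 and 729.6 TPM in shControl, 641 and 639 with sh1, 694 and 684 with sh2, 788 and 785 with inhibitor, 747 and 743 in Vector and 777 and 789 with overexpression. It was lowest with sh1, next with sh2, and highest with inhibitor and overexpression. ARPC2 was -0.14 (SE 0.0176, adjusted p = 0.00016) in the knockdown, 0.10 (SE 0.0204, adjusted p = 0.00388) with inhibitor and 0.07 (SE 0.0204, adjusted p = 0.022) with overexpression, and the last turned to -0.03 after rescaling by the median of ratios. Its inhibitor call was lost after either rescaling, and its overexpression call also without either Vector library or overexpression replicate 2. ARPC5 rose by 0.22 with inhibitor, lost under quantile normalization and without shControl replicate 2 or inhibitor replicate 1. It rose by 0.18 with overexpression, lost under the median of ratios and without Vector replicate 1 or overexpression replicate 1. WIPF1 encodes the partner that stabilizes the Wiskott-Aldrich syndrome protein, an activator of the complex, and stood at 67 and 66.8 TPM in shControl, 102 and 86.3 with sh1, 88.4 and 96.3 with sh2, 70.4 and 67.9 with inhibitor, 75.4 and 82.1 in Vector and 89.1 and 85.9 with overexpression. The hairpin libraries were high but the 2 sh1 libraries spread widely, and the overexpression libraries reached into their range. WIPF1 rose by 0.47 (SE 0.0641, adjusted p = 0.0003) in the knockdown, 0.24 and still called with the control columns exchanged, and was 0.05 with inhibitor. WAS itself passed in none of these comparisons (0.11 in the knockdown, adjusted p = 0.0572).

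Of the 6 crosslinker and adhesion genes, ZYX and VCL rose and LIMA1 and ACTN4 fell in the knockdown, FLNA rose and ZYX and LIMA1 fell with inhibitor, and ZYX, VCL and ACTN4 rose with overexpression. ZYX, zyxin, a protein of focal adhesions and strained filaments, stood at 38.3 and 37.3 TPM in shControl, 57.9 and 52.7 with sh1, 48.8 and 49.7 with sh2, 33.3 and 34.9 with inhibitor, 44.1 and 42.5 in Vector and 58.7 and 58.4 with overexpression. The overexpression and sh1 libraries were highest, sh2 next, and the inhibitor libraries lowest. ZYX rose by 0.46 (SE 0.0411, adjusted p = 2.4e-05) in the knockdown and 0.43 (SE 0.0475, adjusted p = 0.00015) with overexpression, and fell with inhibitor, -0.15 (SE 0.0475, adjusted p = 0.0358). With the control columns exchanged the knockdown value was 0.26. The inhibitor call was kept in 7 of 13 alternatives and lost, among others, without either shControl library or inhibitor replicate 1. VCL, vinculin, was 0.28 (SE 0.0622, adjusted p = 0.00633) with overexpression and 0.22 (SE 0.0539, adjusted p = 0.00881) in the knockdown, the latter becoming -0.01 with the control columns exchanged and lost without shControl replicate 1. FLNA, filamin A, which joins filaments at angles, stood at 549.5 and 534 TPM in shControl, 586 and 586 with sh1, 499 and 516 with sh2, 646 and 689.8 with inhibitor, 513 and 512 in Vector and 533 and 529 with overexpression. The inhibitor libraries were highest, sh1 next and sh2 at the low end, and FLNA rose with inhibitor by 0.30 (SE 0.0325, adjusted p = 0.00012). ACTN4, a bundling actinin, was -0.12 in the knockdown and 0.12 with overexpression, the first call being lost without either shControl library. The second was lost after the median of ratios (0.02) and without Vector replicate 2 or either overexpression library. ACTN1 passed in neither. LIMA1, a filament-bundling protein, was -0.38 (SE 0.114, adjusted p = 0.0219) in the knockdown and -0.45 (SE 0.132, adjusted p = 0.0221) with inhibitor, at a level under 3 TPM. The knockdown call was lost without shControl replicate 1, sh1 replicate 2 or sh2 replicate 1, and the inhibitor call without shControl replicate 1 or either inhibitor library.

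Ezrin, radixin and moesin tie the actin cortex to the membrane. Of their genes RDX fell in the knockdown, EZR rose with inhibitor, and EZR and RDX rose with overexpression. RDX stood at 10.4 and 10.7 TPM in shControl, 9.01 and 7.92 with sh1, 8.94 and 9.15 with sh2, 13.2 and 11.1 with inhibitor, 11.1 and 11.9 in Vector and 14.9 and 14.2 with overexpression. Hairpin libraries were lowest and overexpression libraries highest, with shControl, Vector and inhibitor between them. RDX was -0.25 (SE 0.0721, adjusted p = 0.0195) in the knockdown, lost without either shControl library, and 0.31 (SE 0.0832, adjusted p = 0.0165) with overexpression, lost without Vector replicate 1 or overexpression replicate 1. EZR, ezrin, ran from 149 to 179 TPM and was 0.14 (SE 0.0347, adjusted p = 0.0105) with inhibitor and 0.11 (SE 0.0347, adjusted p = 0.0379) with overexpression. The inhibitor call was lost after either rescaling, without shControl replicate 2 and with the control columns exchanged (0.07). The overexpression call was lost after the median of ratios (0.0068) and without either Vector library or overexpression replicate 1. MSN, the main member at 248 to 289 TPM, and the intermediate filament gene VIM at 825 to 963 TPM passed in none of the knockdown, inhibitor and overexpression comparisons.

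The knockdown and overexpression comparisons have different controls, so calls of opposite direction can be read across them. MYH10, ARPC2, ACTN4 and RDX were lower in the knockdown and higher with overexpression, a pattern that 3.76% of all tested genes showed, and CNN3 was higher in the knockdown and lower with overexpression, as were 1.44%. Each of these 5 overexpression calls was lost under at least 1 alternative, as given with each gene above. The calls of 8 genes, ACTG1, MYL12B, CNN2, RHOA, RHOC, CFL1, VCL and ZYX, were higher in both, as were 11.7% of all tested genes. Of these, only ACTG1, RHOC and ZYX kept both calls under every alternative run. The knockdown calls of MYL12B, CNN2 and VCL were lost with the control columns exchanged, where CNN2 was called lower. After the median of ratios CFL1 lost both calls, and MYL12B and RHOA lost the overexpression call. The difference between the effects was not tested.

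The knockdown and inhibitor comparisons share the shControl libraries, so the inhibitor was set directly against the mean of both hairpins. Of the 41 genes, 14 were higher with inhibitor, where 30.9% of all tested genes were, and 12 were lower, where 21.6% were. CNN3 differed most, at -1.07 (SE 0.0597, adjusted p = 9.7e-07): 14.2 TPM on average with inhibitor and 31.0 with the hairpins. Next came MYL9 at -0.92, which did not pass without inhibitor replicate 1 (-0.42, adjusted p = 0.102), TPM4 at -0.60 (SE 0.0509, adjusted p = 1.1e-05) and ZYX at -0.60 (SE 0.0411, adjusted p = 3.3e-06). WIPF1 was -0.42, RHOC -0.40, TMSB4X -0.39 and RHOB -0.32. Higher with inhibitor were RDX at 0.43 (SE 0.0721, adjusted p = 0.0008), CORO1A at 0.34 (SE 0.0209, adjusted p = 1.9e-06), TPM1 at 0.30, which did not pass without inhibitor replicate 1 (0.24, adjusted p = 0.0735), FLNA at 0.29 and MYH10 at 0.27. MYH10, which fell in both against shControl, was thus less reduced with inhibitor. ARPC1B, called higher against shControl in both, was -0.24 in the direct comparison. This comparison does not use shControl or Vector and was the same with the control columns exchanged.

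The 2 hairpins differed little in these genes. Between sh2 and sh1, 1 member was higher and 2 lower, where 1.16% and 0.385% of all tested genes were. MYH9 was -0.22 (SE 0.0326, adjusted p = 0.0181), FLNA -0.21 (SE 0.0325, adjusted p = 0.023) and ARPC2 0.11 (SE 0.0204, adjusted p = 0.0419). FLNA was 0.11 with sh1 and -0.09 with sh2 against shControl. The 3 differences lost their calls when only the groups compared were fitted, with no trend or without either sh1 library. ARPC2 also lost its call without either sh2 library.

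The controls themselves differed. Vector against shControl gave 15 members higher, where 21.4% of all tested genes were, and 4 lower, where 7.86% were. Leaving out 1 library left 5 to 8 higher, 5 without shControl replicate 1, 6 without shControl replicate 2, 8 without Vector replicate 1 and 7 without Vector replicate 2, and the median of ratios gave 6 higher and 8 lower. The largest called change was TPM2 at 0.62 (SE 0.174, adjusted p = 0.0246), lost without any 1 of the 4 libraries. TPM2 averaged 1.06 TPM in Vector and 0.34 TPM in shControl, near the floor. It passed the filter only through Vector, inhibitor and overexpression libraries, so little rests on this call. After it came RHOB at 0.47 (SE 0.076, adjusted p = 0.00196) and CNN2 at 0.37 (SE 0.0364, adjusted p = 0.00013). PFN1 was -0.30 (SE 0.0351, adjusted p = 0.00033), and MYL6, VIM and CORO1A were also lower. TMSB4X was 0.22 and MYL12B 0.20, beside 0.32 and 0.18 in the knockdown; both comparisons use the shControl libraries.

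**Figure D4:**
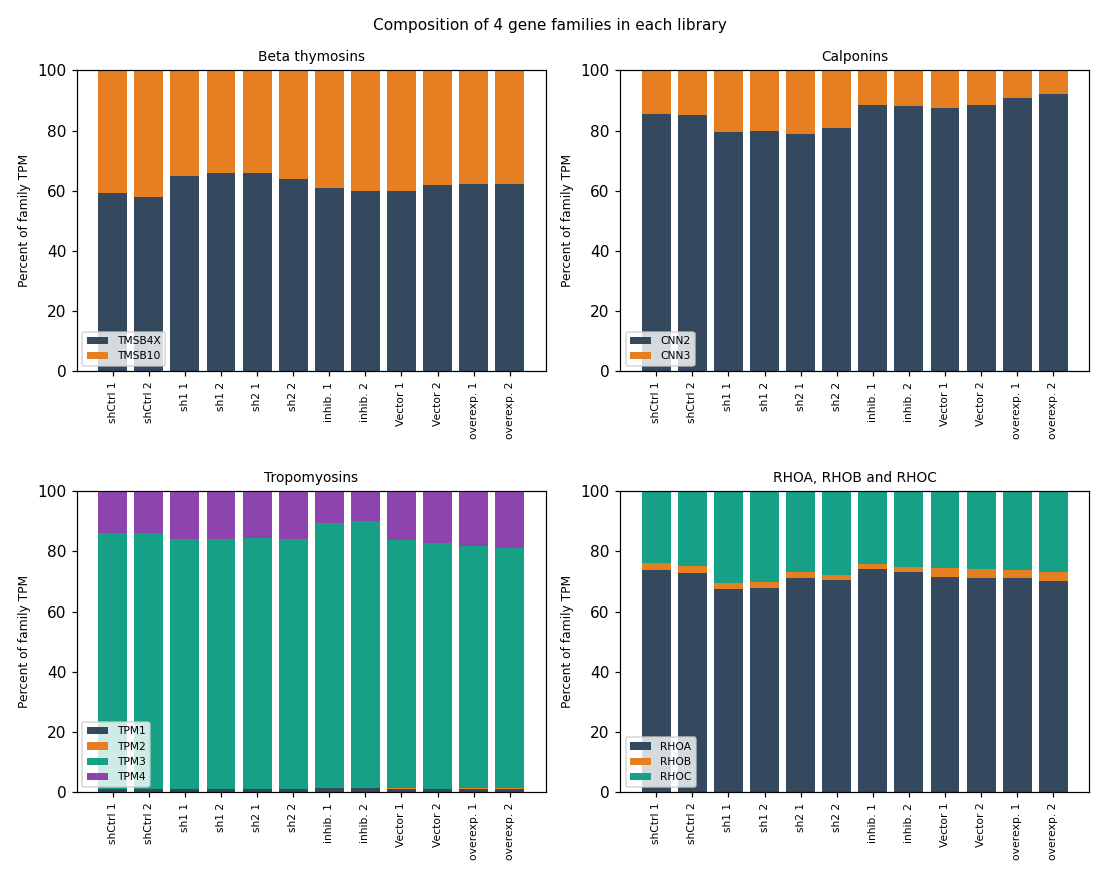
Percent of the summed TPM of 4 gene families taken by each member in each of the 12 libraries, as stacked bars from 0 to 100. CNN3 takes 19.2% to 21.0% of the calponins in the hairpin libraries and 7.85% to 15.0% elsewhere, and TPM4 takes its smallest share of the tropomyosins, 9.74% and 10.6%, with inhibitor.

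Shares within a family do not depend on the scale of a library. TMSB4X took 64.0% to 66.0% of the beta thymosins in the hairpin libraries and 57.9% to 62.3% in all others. CNN3 took 19.2% to 21.0% of the calponins with the hairpins, 14.7% and 15.0% in shControl, 11.7% in both inhibitor libraries, 12.6% and 11.5% in Vector and 9.29% and 7.85% with overexpression. RHOC took 30.6% and 30.1% of RHOA, RHOB and RHOC with sh1, 26.8% and 27.7% with sh2 and 23.9% to 26.7% elsewhere. MYH10 took 1.34% to 1.82% of the heavy chains with the hairpins, 2.05% and 2.07% with inhibitor and 2.90% to 3.52% elsewhere. The regulatory light chains MYL12A and MYL12B each kept between 47.5% and 51.6% of their family in every library.

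Other genes of the actin system were counted from a list of 92, of which 89 passed the filter. In the knockdown 37 rose and 21 fell, where 26.2% and 20.2% of all tested genes did. With inhibitor 30 rose and 13 fell, against 28.0% and 11.8%, and with overexpression 34 rose and 2 fell, against 26.6% and 10.3%. Rescaling by the median of ratios gave 15 higher and 20 lower with inhibitor and 19 higher and 8 lower with overexpression. In the knockdown nucleation genes gave 11 of 21 higher and 4 lower, and genes of capping, severing and turnover 6 of 18 and 6. In the knockdown CAPG, which caps filament ends, rose by 1.11 (SE 0.159, adjusted p = 0.0004) from 4.09 and 3.77 TPM to between 7.53 and 12.1. TWF1, twinfilin 1, a monomer-binding protein, rose by 0.86 (SE 0.0693, adjusted p = 1.2e-05) from 23.7 and 23.3 to between 41.8 and 45.2 TPM. SPTBN1, a beta spectrin of the membrane skeleton, fell from 39.9 and 39.4 to between 19.9 and 23.8 TPM (-0.83 (SE 0.0442, adjusted p = 1.2e-06)). The hairpin libraries of these 3 genes did not overlap the shControl libraries. As the genes were picked for large called changes, this adds no support. With inhibitor SPTBN1 stood at 29.4 and 30.6 TPM, CAPG at 4.07 and 6.24 and TWF1 at 27.8 and 24.9.

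With inhibitor, WASF1, a WAVE family activator of Arp2/3, fell from 6.4 and 6.4 to 4.28 and 3.62 TPM (-0.58 (SE 0.113, adjusted p = 0.0031)), and CTTN, cortactin, from 11.3 and 12.3 to 8.52 and 8.88 TPM (-0.40 (SE 0.0649, adjusted p = 0.00122)). RHOH, a small GTPase of blood cells, rose from 14 and 14.3 to 19.2 and 19.6 TPM (0.43 (SE 0.0584, adjusted p = 0.00046)). These changes were not all particular to the inhibitor: in the knockdown WASF1 fell by -0.61 and RHOH rose by 0.58, while CTTN did not pass (-0.11). With overexpression LSP1, an actin-binding protein of leukocytes, rose from 38.1 and 37.8 to 84.9 and 80.7 TPM (1.11 (SE 0.0502, adjusted p = 8.3e-07)). Its shControl libraries stood at 48.5 and 52.5 TPM, and with the control columns exchanged the change was 0.70 and still called. ARHGAP4, a GTPase-activating protein, rose from 84.4 and 79.4 to 114 and 115 TPM (0.48 (SE 0.0385, adjusted p = 2.7e-05)), and PPP1R12C, a myosin phosphatase subunit, from 57.7 and 55.5 to 78.3 and 77.5 TPM (0.45 (SE 0.0339, adjusted p = 1.7e-05)). In the knockdown ARHGAP4 also rose, by 0.37, and PPP1R12C by 0.14, while LSP1 did not pass (0.09). PPP1R12C stood at 78.8 and 76.7 TPM with inhibitor and 60.0 and 60.8 in shControl.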

How the data were processed

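RNA of KMS11 cells was extracted with an RNeasy kit, selected by poly(A) and sequenced as stranded libraries on DNBSEQ, per the labels' protocols. The authors deposited a table of TPM, 1 value per gene and library. The build GRCh38.p13 and the tools RSEM 1.3.1, Bowtie2 2.3.4.3, HISAT and DESeq2 1.4.5 stand, with no roles, in the submitters' processing notes. Depth is unknown, and no count model was used. Genes reaching 1 TPM in 2 or more libraries, 12731 in all, were fitted as log2(TPM + 1) with limma 3.58.1 (R 4.3.3), a mean for each of the 6 groups, eBayes with trend, and Benjamini-Hochberg adjustment within each of 8 comparisons. The pseudocount of 1 TPM understates changes of low genes.

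Members and lists were chosen with earlier results of these data known. Values in every library are given for ACTB, ACTG1, MYH9, MYL9, MYL12A and MYL12B and for members averaging at least 5 TPM with a called change of at least 0.4 (log2) and no overlap in the knockdown, inhibitor or overexpression comparison; others given in full were added after values were seen. In the list of other actin genes, up to 4 called genes per comparison with the largest change and at least 5 TPM are named, except 1 not reported here. Alternatives were a pseudocount of 0.1, no filter, a filter at 5 TPM, fitting only the groups compared, 2 rescalings, a replicate block, no trend, exchanged control columns and leaving out each library. Gene coordinates are GENCODE on GRCh38.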

Additional observations from a re-analysis of the deposited data

Results flagged for a closer look

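In 3 members the effects of the 2 hairpins against the same control differed by a test of the difference itself. MYH9 was -0.22 (log2) in sh2 relative to sh1, FLNA -0.21 and ARPC2 0.11, with limma adjusted p of 0.0181, 0.023 and 0.0419. MYH9 and FLNA were lower, and ARPC2 higher, in both sh2 libraries than in both sh1 libraries. None of the 3 calls held without either sh1 library or with no trend. Without an sh2 library ARPC2 lost its call, and MYH9 and FLNA did not both hold. The ARPC2 call was also lost with no filter, with a replicate block and after either rescaling. STK17B was 11.8 TPM with sh1 and 14.6 with sh2, and its part in these differences was not tested. Fitting only the 2 hairpin groups left none of these calls.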

How the results depend on the processing

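Of the calls in the report, 11 of 22 in the knockdown, 8 of 22 with inhibitor and 7 of 20 with overexpression held under every alternative run. Some were lost with no filter, a replicate block, only the groups compared or no trend. These were CFL1 and CORO1A in the knockdown and MYL12A, RHOA, TMSB4X and ZYX with inhibitor. With overexpression they were MYL12A, CNN3, TMSB10, ARPC2, ARPC5, ACTN4 and EZR. Rescaling by the median of ratios gave 10 members lower in the knockdown, 9 lower with sh2, 6 higher with inhibitor, 8 higher and 5 lower with overexpression, 6 higher and 8 lower for Vector, and 0 higher for sh2 minus sh1. Quantile normalization gave 7 higher with inhibitor, 1 lower with overexpression, 0 higher for sh2 minus sh1, and 9 higher and 19 lower for inhibitor minus hairpins. Exchanging the control columns gave 13 lower in the knockdown, 12 lower with sh2 and 28 higher with overexpression. Fitting only the groups compared gave 3 lower with sh1, 0 lower with overexpression, and 0 higher and 0 lower for sh2 minus sh1. Without trend, 0 were lower with overexpression and 0 higher or lower for sh2 minus sh1. Without a filter, 0 were lower with overexpression and 0 higher for sh2 minus sh1. The cause of these shifts was not tested.

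Leaving out 1 library at a time gave 2 to 5 lower in the knockdown, fewest without shControl replicate 1, and 3 without shControl replicate 2. It gave 2 to 5 lower with sh1, with 2 without shControl replicate 1 or sh1 replicate 2 and 3 without shControl replicate 2. With sh2 it gave 9 to 12 higher, fewest without sh2 replicate 2, and 2 to 3 lower, fewest without sh2 replicate 2 or shControl replicate 1. With inhibitor 5 to 6 were lower, 5 without either shControl library or inhibitor replicate 1. With overexpression 11 to 14 were higher, fewest without overexpression replicate 1, and 0 to 2 lower, with 0 without Vector replicate 1 or overexpression replicate 2. For Vector 5 to 8 were higher, 5 without shControl replicate 1, and 2 to 4 lower, 2 without Vector replicate 2. For sh2 minus sh1, 0 were higher and 0 to 1 lower. A group left with 1 library is assumed to vary like the others.

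Where a value was called as reported or after the change, these signs turned with the control columns exchanged, on the log2 scale. In the knockdown MYL12B became -0.019, TPM2 -0.49, TPM4 -0.064, CNN2 -0.22, PPP1R12A -0.20, CORO1A 0.048 and VCL -0.010. With sh1 CNN2 became -0.19 and VCL -0.0071. With sh2 MYL12B became -0.043, TPM2 -0.62, TPM4 -0.027, CNN2 -0.24 and VCL -0.013. With inhibitor MYL6 became 0.12, MYL12A -0.044, MYL12B -0.015, RHOA -0.0035 and RHOC -0.11, and with overexpression PFN1 -0.060 and TMSB4X 0.19. Quantile normalization turned TMSB4X to 0.068 with inhibitor, and MYL12B to -0.13 and VIM to -0.087 for inhibitor minus hairpins. The median of ratios turned ARPC2 to -0.029 with overexpression and ACTG1 to -0.0032 for Vector.

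Of the calls over all genes, 62.2% were higher with sh2, 73.1% for Vector and 75.1% for sh2 minus sh1. The median of ratios gave 49.3%, 48.7% and 52.6%, and quantile normalization 46.8%, 48.4% and 54.1%. With the control columns exchanged the share was 36.4% with sh1 (52.6% as reported), 41.9% with sh2 and 49.0% with inhibitor.

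For the other actin genes these settings were applied after seeing the data. The inhibitor counts became 15 higher and 20 lower under the median of ratios, 13 higher under quantile normalization and 27 lower with exchanged controls. Those of overexpression became 19 higher and 8 lower, 7 lower, and 54 higher in the same order, and leaving out 1 library gave 1 to 2 lower, 1 without Vector replicate 2 or overexpression replicate 2.

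No pairing by replicate number was detected: over 15 pairs of groups the deviations correlated between -0.17 and 0.18. Of these, 3 pairs were over 0.1 and 3 under -0.1. With 2 libraries per group, a weak shared shift could be missed. With the replicate block 0 members were higher for sh2 minus sh1, and the other counts stayed within 1.5 times. Exchanged controls also turned SRF to -0.017 with overexpression and TAGLN to -0.15 in the knockdown. With unknown depth, differences in genes under 5 TPM rest on an unknown number of reads.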

Other observations

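SRF, the transcription factor that binds the CArG box, its coactivators and its smooth muscle targets were singled out after their values were seen. SRF averaged 26.6 TPM with the hairpins and 32.4 in shControl, a fall (log2 -0.28, SE 0.0385, adjusted p = 0.00033, limma) called under each alternative run. It was 0.13 (SE 0.0444, adjusted p = 0.0469) with inhibitor and 0.13 (SE 0.0444, adjusted p = 0.0435) with overexpression, and both calls were lost after either rescaling and without any 1 library of the groups compared. MKL1, the older symbol of MRTFA, a coactivator that binds actin monomers, rose with overexpression from 13.8 to 17.4 TPM (0.31, SE 0.0504, adjusted p = 0.00124), a call also kept under each alternative run. It was -0.03 in the knockdown and 0.11 with inhibitor, neither past the test, though the inhibitor value passed at 0.15 with the control columns exchanged.

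MKL2, the other coactivator listed, passed in none of the knockdown, inhibitor and overexpression comparisons. Of the smooth muscle targets, CNN1 and CALD1 did not reach the filter. ACTA2 rose in the knockdown from 3.85 to 5.52 TPM (0.43, SE 0.0841, adjusted p = 0.00263), called under each alternative run. It passed neither with inhibitor nor with overexpression under any of them. MYH11, of the smooth muscle markers, stayed under 1 TPM, at 0.45 and 0.43 in shControl and 0.12 to 0.23 with the hairpins. TAGLN rose in the knockdown from 4.54 to 6.3 TPM (0.39, SE 0.131, adjusted p = 0.0354). That call was lost after quantile normalization, with no filter, and without shControl replicate 1, shControl replicate 2, sh1 replicate 1 or sh2 replicate 2, and the value turned to -0.15 with the control columns exchanged. TAGLN was -0.12 with inhibitor and 0.20 with overexpression, neither past the test, and the exchange brought both past it, at -0.66 and 0.73. The kinases and the phosphatase of myosin and cofilin gave 1 of 14 higher and 4 lower in the knockdown, where 26.2% and 20.2% of all tested genes were. With inhibitor 3 were higher and 2 lower, against 28.0% and 11.8% of all genes. With overexpression 5 were higher and 0 lower, against 26.6% and 10.3%.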
